A study of Mus musculus with 6 samples.

Results

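In the P16 mouse forebrain, 122 of 75867 nuclei carried RNA of Gad1 or Gad2, the enzymes that make GABA, together with RNA of the transcription factor Lhx6, and had no RNA molecule of the neuropeptide gene Sst. These Lhx6 nuclei without Sst were chosen by their measured counts. Each had at least 3 unique molecular identifiers (UMIs, each standing for 1 captured RNA molecule) of Gad1 and Gad2 together, at least 2 of Lhx6 and 0 of Sst. It also had at most 1 of the striatal gene Rgs9, at most 1 of Slc17a7 and Slc17a6 together, the vesicular glutamate transporters of excitatory neurons, and at most 9 of Adarb2, which marks interneurons of another origin. The Gad1, Gad2, Lhx6, Sst, Rgs9, Slc17a7, Slc17a6 and Adarb2 counts of these nuclei are therefore conditions of the choice and not results.

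Lhx6 is a LIM-homeodomain transcription factor that cortical and striatal interneurons keep after they leave the medial ganglionic eminence of the embryo, where Nkx2-1 switches it on. The interneurons of this origin fall largely into a Pvalb-expressing group, with fast-spiking basket and chandelier cells, and an Sst-expressing group that mainly contacts dendrites, and Sox6 and Satb1 act downstream of Lhx6 in their maturation. Adarb2 marks most interneurons of the caudal ganglionic eminence, among them the Vip-expressing cells. Pvalb itself, a calcium-binding protein of mature fast-spiking cells, is switched on after birth.

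The study compared forebrain of 3 WT and 3 Npc1-/- littermate mice at P16 by single-nucleus RNA sequencing on the 10x Genomics Chromium platform. Npc1 encodes a lysosomal cholesterol transporter, and its loss is the main cause of Niemann-Pick C disease. The Npc1-/- mice carried the Npc1 nih allele, and all mice were F1 hybrids from a cross of BALB/cJ with C57BL6/J Npc1+/- parents. The counts were deposited as 1 matrix whose barcodes end in a number from 1 to 6, and no source used here ties a number to a mouse, so libraries are named by number, genotypes were not compared, and values stand for WT and Npc1-/- nuclei together.

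The 6 libraries kept 8215 to 16109 nuclei each, with totals of 51342120 to 107561475 UMIs and a median of 4471 to 5439 UMIs per nucleus. The bases of 1264 of 75878 barcodes occurred in another library too, which touched 4 of the 122 Lhx6 nuclei, and no barcode was shared between members. All intervals below are exact 95% intervals and cover counting error only. Fewer nuclei of a kind and less Lhx6 RNA in each nucleus cannot be told apart by a rule that counts molecules.

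Libraries 1 to 6 held 22, 21, 25, 18, 17 and 19 Lhx6 nuclei without Sst. As a share of the nuclei kept, this was 0.161% over all libraries (interval 0.134% to 0.192%), with a range from 0.130% in library 2 to 0.231% in library 6. The intervals of these 2 libraries overlapped (0.0807% to 0.199% and 0.139% to 0.361%). The Lhx6 nuclei were deep, with a median of 10516 UMIs and 3690.5 genes against 4957 UMIs over all nuclei, and their share differed between bands of depth. None of 19835 nuclei under 3000 UMIs met the rule (interval up to 0.0186%), against 13 of 24926 nuclei from 3000 to 6000 UMIs (0.0522%), 43 of 17057 from 6000 to 10000 (0.252%) and 47 of 8917 from 10000 to 15000 (0.527%). Above that it was 19 of 5132 (0.370%), with an interval of 0.223% to 0.578% that overlapped with that of the band before it (0.388% to 0.700%). The share of all Lhx6 interneurons in the tissue was therefore not measurable by this rule.

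Most members sat at the lowest Lhx6 count the rule admits, 97 with 2 UMIs and 25 with 3 or more. Nuclei that met every other condition were more numerous just outside it, 280 with 1 Lhx6 UMI and 2307 with none. Sox6, the transcription factor downstream of Lhx6, stood at 881 CPM (the UMIs of a gene over all UMIs of the class, scaled to a common total) in members with 2 Lhx6 UMIs, 783 CPM in nuclei with 1 and 367 CPM in nuclei with none. Nxph1, a secreted neurexin ligand, stood at 3487, 2892 and 1352 CPM in the same order, and Meis2, a transcription factor of striatal and caudal-origin neurons, at 74.2, 153 and 657 CPM. Nuclei with 1 Lhx6 UMI were thus closer to members than to nuclei without Lhx6 in all 3 genes. At the other thresholds, 30 nuclei failed only by 1 Sst UMI and had 3905 CPM of Nxph1, 3591 CPM of Kcnc2, 7306 CPM of Erbb4 and 629 CPM of Cntnap4, against 3467, 4179, 9532 and 694 CPM in members, whereas Grin3a, an NMDA receptor subunit typical of Sst interneurons, was at 744 CPM in them and at 245 CPM in members. The 18 nuclei with too many Adarb2 UMIs had 458 CPM of Sox6 and 1371 CPM of Kcnc2, against 856 and 4179 CPM in members.

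**Figure D1:**
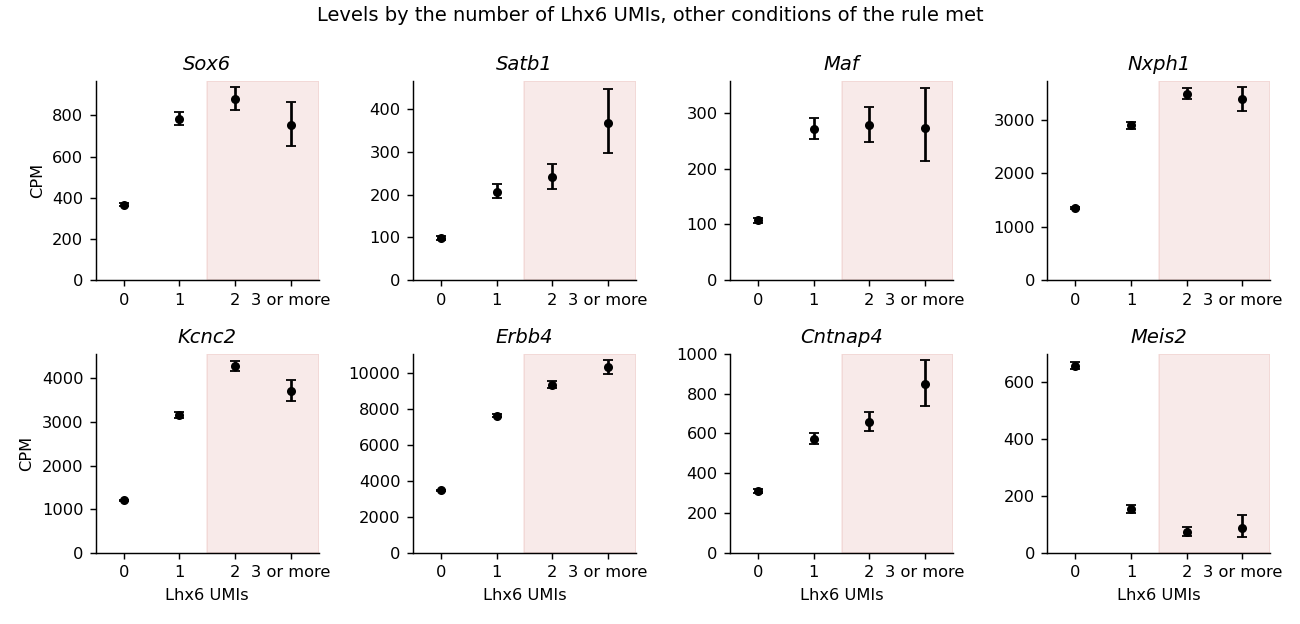
Levels (CPM, y axis from 0) of 8 genes in nuclei with 0, 1, 2 or 3 or more Lhx6 UMIs that met all other conditions (x axis; 2307, 280, 97 and 25 nuclei); bars are exact 95% Poisson intervals and the shaded columns are the members. Sox6, Nxph1 and Kcnc2 in nuclei with 1 Lhx6 UMI lie nearer to the members than to nuclei with none, and Meis2 falls from 657 CPM at 0 UMIs to 74.2 CPM at 2.

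The 15 genes with the largest fold over all other nuclei included the potassium channel genes Kcnc2, Kcnmb2 and Kcns3. Kcnc2, which encodes the Kv3.2 channel that lets fast-spiking neurons repolarize quickly, was at 4179 CPM in the Lhx6 nuclei against 433 CPM in the other nuclei, a 9.65-fold difference, and 120 of 122 members had a UMI of it. Kcnmb2, an auxiliary subunit of calcium-activated potassium channels, was at 1051 against 101 CPM. Erbb4, the neuregulin receptor that interneurons use to gather excitatory input, was at 9532 against 1271 CPM, and Nxph1 at 3467 against 441 CPM. Cemip, which encodes a hyaluronan-degrading protein, was at 449 against 62.8 CPM, and the transcriptional coactivator gene Eya4 at 232 against 25.3 CPM. Oprd1, the delta opioid receptor, was at 128 against 14.5 CPM and was found in 55.7% of members. The largest fold among genes of at least 50 CPM belonged to Gm31218, a long noncoding RNA on chromosome 13 (64449437 to 64508611, GRCm38), with 77.7 against 3.68 CPM and UMIs in 44 of 122 members. The other genes among the first 15 were Moxd1, 9630002D21Rik, Nxph2, Kcns3, 6330411D24Rik, Btbd11 and the antisense transcript Tmem132cos, whose counts cannot be told apart from those of Tmem132c if strand was not used. The same limit holds for Sox5os4 and Dlx6os1, named below. All 15 were higher in 6 of 6 libraries, a direction that the ranking itself favours.

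Promoters (250 bases before to 50 after the first listed start) of the gene that defines the nuclei, of 4 leading genes and of Pvalb are shown because these genes carry the description below. They come from RefSeq on GRCm38.p6, 5′ to 3′ on the strand of the gene, and lie at chr2:36105359-36105658 for Lhx6 (minus strand), chr10:112269767-112270066 for Kcnc2 (plus), chr3:31902453-31902752 for Kcnmb2 (plus), chr1:69108010-69108309 for Erbb4 (minus), chr6:8949769-8950068 for Nxph1 (plus) and chr15:78206351-78206650 for Pvalb (minus). Capitals mark the letters ACAAT on either strand, the core that Sox factors bind.
Lhx6: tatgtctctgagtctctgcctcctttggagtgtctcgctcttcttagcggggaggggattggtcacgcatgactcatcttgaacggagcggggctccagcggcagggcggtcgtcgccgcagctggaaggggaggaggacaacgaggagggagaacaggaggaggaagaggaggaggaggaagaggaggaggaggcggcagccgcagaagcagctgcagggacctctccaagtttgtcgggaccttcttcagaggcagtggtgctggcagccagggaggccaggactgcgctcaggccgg
Kcnc2: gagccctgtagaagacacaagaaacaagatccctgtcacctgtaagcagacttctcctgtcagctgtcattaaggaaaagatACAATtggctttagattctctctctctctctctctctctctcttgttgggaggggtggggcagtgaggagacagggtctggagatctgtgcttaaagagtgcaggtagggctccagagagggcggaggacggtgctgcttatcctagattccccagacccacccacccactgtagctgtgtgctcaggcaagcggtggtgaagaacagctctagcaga
Kcnmb2: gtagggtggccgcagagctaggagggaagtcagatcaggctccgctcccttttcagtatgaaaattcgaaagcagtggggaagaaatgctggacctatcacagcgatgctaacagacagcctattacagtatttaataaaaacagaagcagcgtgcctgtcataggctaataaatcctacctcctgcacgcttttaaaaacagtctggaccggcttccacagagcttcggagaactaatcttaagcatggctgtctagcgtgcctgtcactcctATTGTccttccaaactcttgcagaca
Erbb4: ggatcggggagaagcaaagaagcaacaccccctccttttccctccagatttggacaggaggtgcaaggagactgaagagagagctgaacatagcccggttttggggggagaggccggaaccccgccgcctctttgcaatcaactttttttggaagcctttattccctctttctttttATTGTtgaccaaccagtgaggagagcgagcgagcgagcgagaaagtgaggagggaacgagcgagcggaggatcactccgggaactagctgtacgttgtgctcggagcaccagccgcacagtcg
Nxph1: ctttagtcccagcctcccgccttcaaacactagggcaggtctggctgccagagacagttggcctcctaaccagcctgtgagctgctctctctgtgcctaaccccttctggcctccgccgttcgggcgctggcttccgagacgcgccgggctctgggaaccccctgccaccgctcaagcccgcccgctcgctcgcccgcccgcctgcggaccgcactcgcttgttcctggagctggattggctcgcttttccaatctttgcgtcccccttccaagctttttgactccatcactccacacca
Pvalb: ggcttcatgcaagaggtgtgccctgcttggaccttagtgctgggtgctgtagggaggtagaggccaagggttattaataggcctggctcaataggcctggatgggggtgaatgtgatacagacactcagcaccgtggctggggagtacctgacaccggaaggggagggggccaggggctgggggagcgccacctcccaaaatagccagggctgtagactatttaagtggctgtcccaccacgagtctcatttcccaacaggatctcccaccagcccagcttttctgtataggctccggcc
The letters ACAAT or their reverse complement occurred once each in the windows of Kcnc2, Kcnmb2 and Erbb4 and in none of the windows of Nxph1, Lhx6 and Pvalb. They are common, being present in 31.6% of 27025 promoters and in 3 of the 14 promoters found for the 15 leading genes, all 3 of them shown. TAATTA, a sequence that homeodomain proteins bind, occurred in 5.31% of all promoters and in 1 of those 14, and it occurred in none of the windows shown. Lhx6, Kcnc2 and Pvalb have 3, 4 and 2 starts in the table, of which the first is printed.

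The Lhx6 nuclei were set beside 2 other kinds of GABA nuclei. The Sst nuclei (103 nuclei, median 9252 UMIs) had at least 3 UMIs of Gad1 and Gad2, at least 2 of Sst, and the same limits for Rgs9, glutamate transporters and Adarb2, with any Lhx6 count. Libraries 1 to 6 held 17, 29, 29, 12, 11 and 5 Sst nuclei, those of library 6 with 38736 UMIs in all. Only 29.1% of the Sst nuclei had an Lhx6 UMI, a planned class with at least 2 Lhx6 and at least 3 Sst UMIs held 4 nuclei, and 39 nuclei had at least 2 Lhx6 and at least 1 Sst UMI. Sst UMIs also occurred in 14.0% of 4766 excitatory reference nuclei (Slc17a7 of at least 3 UMIs, median depth 11470 UMIs), so some Sst RNA was present in cells that should lack it. The Adarb2 nuclei (1703 nuclei, median 8363 UMIs) had at least 10 Adarb2 UMIs and at most 1 of Lhx6. They are called by their rule, and their Meis2 level differed widely between libraries (342.8 to 1877 CPM). A gene was called higher or lower where it had at least 100 UMIs over both classes, differed by at least 2-fold in CPM, and lay on the same side in 6 of 6 libraries. No p-value is given, since the classes were chosen from the same counts, and the comparisons are descriptions.

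Against the Adarb2 nuclei, the Lhx6 nuclei were higher in 167 of 11497 genes (1.45% called) and lower in 556 (4.84% called). The excess of lower genes lay among rare transcripts, and among 3869 genes of at least 50 CPM in either class 123 were higher (3.18%) and 135 lower (3.49%). The median log2 ratio over all genes was -0.14, with 7334 of 11497 genes below 0, and scaled to this median 221 genes were higher and 404 lower. Against the Sst nuclei, 63 of 4202 genes were higher (1.5%) and 61 lower (1.45%), and all of these also lay among the 3888 genes of at least 50 CPM, where they made 1.62% and 1.57%. The median log2 ratio over all genes was -0.03. Against 39 nuclei that had at least 2 Lhx6 UMIs and at least 1 Sst UMI, a class added after the data were seen, 20 genes were higher and 15 lower. Libraries 1 to 6 held 5, 6, 13, 7, 5 and 3 of these 39 nuclei, so a call on the same side in every library rested on few nuclei. The 39 include the 30 nuclei that failed the member rule only by 1 Sst UMI. Sst UMIs also occurred in excitatory reference nuclei, and whether these single UMIs were stray was not tested. A gene not called against the 39 nuclei is therefore not shown to be alike in both classes. Most nuclei of the Sst class had no Lhx6 UMI, so a difference from it is also one between nuclei with and without Lhx6 UMIs.

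Sox6 and Satb1 were called higher in the Lhx6 nuclei than in the Adarb2 nuclei, and no transcription factor of the list was called higher than in the Sst nuclei. Sox6 in libraries 1 to 6 was at 859, 645.5, 892.5, 555, 1088 and 1148 CPM in the Lhx6 nuclei, and at 196 to 256 CPM in the Adarb2 nuclei. The ranges did not overlap, and the log2 ratio was 1.96 (interval 1.86 to 2.05). Satb1, a chromatin organizer required for the maturation of these interneurons, was at 295, 199, 243, 206, 353 and 313 CPM, above the 47.3 to 71.8 CPM of the Adarb2 nuclei in every library (log2 ratio 2.18, interval 2.00 to 2.36). Maf, a transcription factor of the same lineage, had a log2 ratio of 0.95 (interval 0.79 to 1.11) and stayed under the 2-fold limit, although it was higher in 6 of 6 libraries.

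In the list of 21 medial-eminence and pan-GABAergic factors, 18 could be compared with the Adarb2 nuclei, of which 3 were called higher, Sox6 and Satb1 among them, and 1 lower (Dlx6os1, an antisense transcript of the Dlx5 and Dlx6 locus), with a median of -0.35. Against the Sst nuclei none of 11 was called higher and Tox, an HMG-box factor, was called lower (log2 ratio -1.82, interval -2.08 to -1.58). Sox6 differed from the Sst nuclei by 0.37 (interval 0.23 to 0.50) and was higher in 4 of 6 libraries only, and the library ranges of both classes overlapped. Against the 39 nuclei with both Lhx6 and Sst, Sox6 had the opposite sign (856 against 1003 CPM, log2 ratio -0.23, interval -0.39 to -0.07). Nkx2-1, which starts the lineage in the embryo, had 2 UMIs in all members together. Lhx8, a factor of the same eminence that forebrain cholinergic neurons keep, had 13.

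Genes of caudal origin lay below the Adarb2 nuclei. Of 22 genes in that list 18 could be compared with the Adarb2 nuclei, and 12 were called lower and none higher, with a median log2 ratio of -1.74 over the 17 genes found in members and of -1.68 with Sp8, which had no UMI in members, at a floor of 3 UMIs. The Adarb2 nuclei held 15970267 UMIs against 1377734 in the Lhx6 nuclei, and genes such as Ndnf (3 against 715 UMIs), Lamp5 (13 against 503) and Cxcl14 (7 against 209) passed the minimum of 100 UMIs through the Adarb2 nuclei, so the count and the median describe genes that were counted mainly there. Against the Sst nuclei 3 of the 22 genes entered, and none was called. Prox1, a factor needed for the caudal lineage, was at 11.6 against 67.4 CPM (log2 ratio -2.54, interval -3.35 to -1.83). The cannabinoid receptor gene Cnr1 was at 26.9 against 118 CPM, and the sorting receptor gene Sorcs3 at 134 against 658 CPM. Vip, the peptide of a large caudal group, had 4 UMIs in all members. The zinc finger factor gene Sp8 and the serotonin receptor gene Htr3a had none. Low values of Adarb2 are a condition of the choice, and genes that follow Adarb2 are not independent of it.

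**Figure D2:**
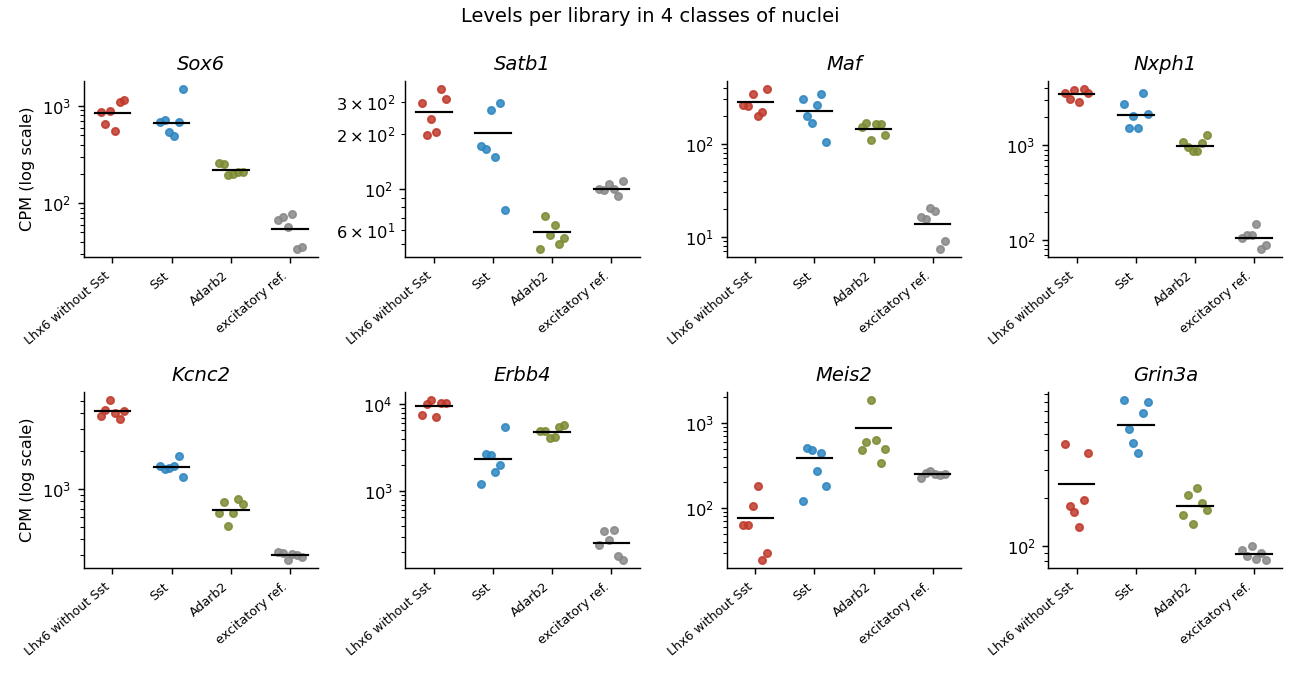
Levels in CPM (log axis) of 8 genes in 4 classes of nuclei, with 1 point per library, 1 to 6 from left to right, and a bar at the level over all nuclei of the class. Kcnc2 in the Lhx6 nuclei (3562 to 5101 CPM) does not overlap with any other class, Sox6 overlaps with the Sst nuclei, and Meis2 is lowest in the Lhx6 nuclei.

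Meis2 was called lower in both comparisons. Its level in libraries 1 to 6 was 63.2, 63.8, 106, 179.8, 24.8 and 29.3 CPM in the Lhx6 nuclei, against 342.8 to 1877 CPM in the Adarb2 nuclei and 120.2 to 506 CPM in the Sst nuclei. The ranges did not overlap with the Adarb2 nuclei, whereas library 4 of the Lhx6 nuclei lay above library 1 of the Sst nuclei. Against the 39 nuclei with both Lhx6 and Sst, Meis2 was not called (76.9 against 73.3 CPM, log2 ratio 0.07, interval -0.51 to 0.69). Other genes far below the Adarb2 nuclei were the extracellular matrix gene Frem1 (2.90 against 57.7 CPM), the homeobox gene Meis1 (8.71 against 88.4 CPM), the forkhead factor Foxp2 (31.2 against 252 CPM), Tshz1 (17.4 against 140 CPM) and the vesicle protein gene Sv2c (18.1 against 133 CPM). Cpa6, Pde11a, Cadps2, Syt6 and 6530403H02Rik completed the 12 named by size.

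Among voltage-gated channel genes, Kcnc2 was called higher in the Lhx6 nuclei than in both other kinds. Kcnc2 was at 3778, 4242, 5101, 3972, 3562 and 4167 CPM in libraries 1 to 6, against 1239 to 1833 CPM in the Sst nuclei and 513 to 836 CPM in the Adarb2 nuclei. No range overlapped with another, and the log2 ratio was 1.48 (interval 1.40 to 1.56) to the Sst nuclei and 2.62 (interval 2.58 to 2.67) to the Adarb2 nuclei. Against the 39 nuclei with both Lhx6 and Sst, Kcnc2 differed by 0.45 (4179 against 3069 CPM, interval 0.36 to 0.53), was higher in 5 of 6 libraries and was not called.

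Kcnc1, which encodes Kv3.1, the other main Kv3 channel of fast-spiking cells, was called higher than in the Adarb2 nuclei (log2 ratio 1.19, interval 1.01 to 1.37). It exceeded the Sst nuclei by 1.23 (interval 0.90 to 1.58) but in 5 of 6 libraries, since library 4 had 84.6 CPM against 150.5 CPM in the Sst nuclei. Kcnab1, a potassium channel beta subunit, and Cacna2d2, a calcium channel subunit, were called higher than in the Adarb2 nuclei with log2 ratios of 1.44 and 1.58. Scn1a, the sodium channel gene most tied to Pvalb interneurons, had log2 ratios of 0.53 and 0.60 and Cacna1a, the P/Q-type calcium channel of fast release, 0.51 and 0.89, all under 2-fold. Scn3a, a sodium channel of the immature brain, was called lower than in the Sst nuclei (log2 ratio -1.22, interval -1.59 to -0.87). Against the 39 nuclei with both Lhx6 and Sst, Scn3a differed by -0.29 (74.8 against 91.6 CPM, interval -0.83 to 0.27) and was not called.

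Of the 22 channel genes, 21 entered the comparison with the Adarb2 nuclei, with 5 called higher, none lower and a median log2 ratio of 0.60. Of 15 that entered the comparison with the Sst nuclei, 2 were higher, with Kcnc2 among them, and 1 lower, with a median of 0.51. It was 0.78 without library 5 and 0.23 against the 39 nuclei with both Lhx6 and Sst. Both medians lay above those of all genes.

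**Figure D3:**
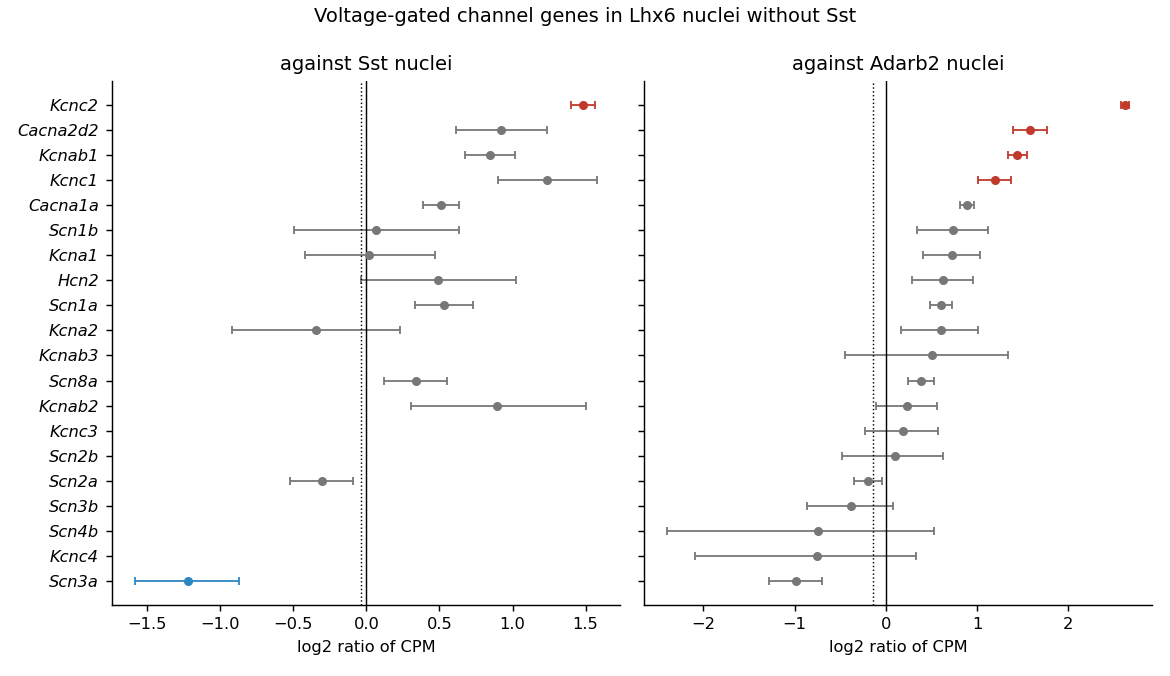
Log2 ratio of CPM (x axis) of voltage-gated channel genes (y axis) in the Lhx6 nuclei to Sst nuclei (left) and Adarb2 nuclei (right), with exact 95% intervals; red is called higher, blue lower, grey neither, and the dotted line is the median of all genes. Kcnc2 has the largest ratio in both panels (1.48 and 2.62).

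Genes typical of Pvalb interneurons were present, and Pvalb was sparse. Pvalb (chromosome 15, 78191114 to 78206400, GRCm38) had 30 UMIs in 24 of 122 Lhx6 nuclei, or 19.7% (interval 13.0% to 27.8%), with 4, 7, 5, 2, 4 and 2 nuclei in libraries 1 to 6. In the excitatory reference nuclei, which should lack it and were slightly deeper, the share was 3.48%, and in 2400 microglia reference nuclei (median 3483 UMIs) 4.08%. To make depth equal, each nucleus of at least 3000 UMIs was thinned to 3000, and shallower nuclei were left out. This removed 999 of 2400 microglia, 100 excitatory, 48 Adarb2 and 3 Sst nuclei and none of the Lhx6 nuclei. The shares were then 8.20% in the Lhx6 nuclei, 0.943% in the excitatory and 1.86% in the microglia reference nuclei, 1.69% in the Adarb2 nuclei and 4.0% in the Sst nuclei. The share in the Lhx6 nuclei was above the background share, and its interval (4.0% to 14.6%) overlapped with that of the Sst nuclei (1.10% to 9.93%).

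All 8 genes of the Pvalb-type list that entered the comparison lay above the Adarb2 nuclei and 7 were called higher, with a median log2 ratio of 1.28. They were Pvalb itself (1.89), the fast calcium sensor of release Syt2 (1.37), the mitochondrial coactivator Ppargc1a (1.15), the tachykinin gene Tac1 (1.18), Kcnc1 (1.19), the muscle-type binding protein gene Mybpc1 (2.52) and the membrane protein gene Tmem132c (2.79). Mybpc1 was found in 24.6% of Lhx6 nuclei against 1.94% of Sst nuclei, 2.94% of Adarb2 nuclei and 1.85% of excitatory reference nuclei. Against the Sst nuclei 3 genes of the list had enough counts, and all 3 ratios were positive (0.61 to 1.23) without a call. Each was under 2-fold or reversed in 1 library. Against the 39 nuclei with both Lhx6 and Sst, Tmem132c was not higher (190 against 213 CPM, log2 ratio -0.16, interval -0.51 to 0.19). Kcnc1 was higher there in 5 of 6 libraries (0.83, interval 0.41 to 1.28), and neither was called. With too few counts, Tac1 was at 23.2 against 24.4 CPM in the Sst nuclei (log2 interval -0.86 to 0.73). Pvalb, Syt2 and Mybpc1, also with too few counts, lay above the Sst nuclei.

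Markers of chandelier, cholinergic and striatal Th neurons had few counts. Among the chandelier markers, Unc5b had 23 UMIs, Vipr2 6 and Pthlh 3 in all members, and 13 members had a UMI of any of the 3 genes. Of the cholinergic genes, Chat had 1 UMI and Slc18a3 none. Th, a marker of a small striatal group, had 1 UMI. The markers of Sst interneurons other than Sst summed to 630 CPM in the Lhx6 nuclei, 1274 CPM in the Sst nuclei and 891 CPM in the Adarb2 nuclei. After thinning to 3000 UMIs, Grin3a was found in 32.0% of Lhx6 nuclei (interval 23.8% to 41.0%), against 54.0% of Sst, 30.9% of Adarb2, 18.5% of excitatory and 21.7% of microglia reference nuclei, so its UMIs were frequent in cells of other kinds too. Elfn1 was found in 6.56% of Lhx6 nuclei and 11.2% of Adarb2 nuclei, and Crhbp, a binding protein of a stress hormone, in 4.92% of Lhx6 nuclei and 0.665% of Adarb2 nuclei. Grin3a was at 434, 177, 163, 132, 194 and 381 CPM in libraries 1 to 6, below the Sst nuclei in each library (log2 ratio -1.22, interval -1.42 to -1.03), and the ranges of both classes overlapped.

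**Figure D4:**
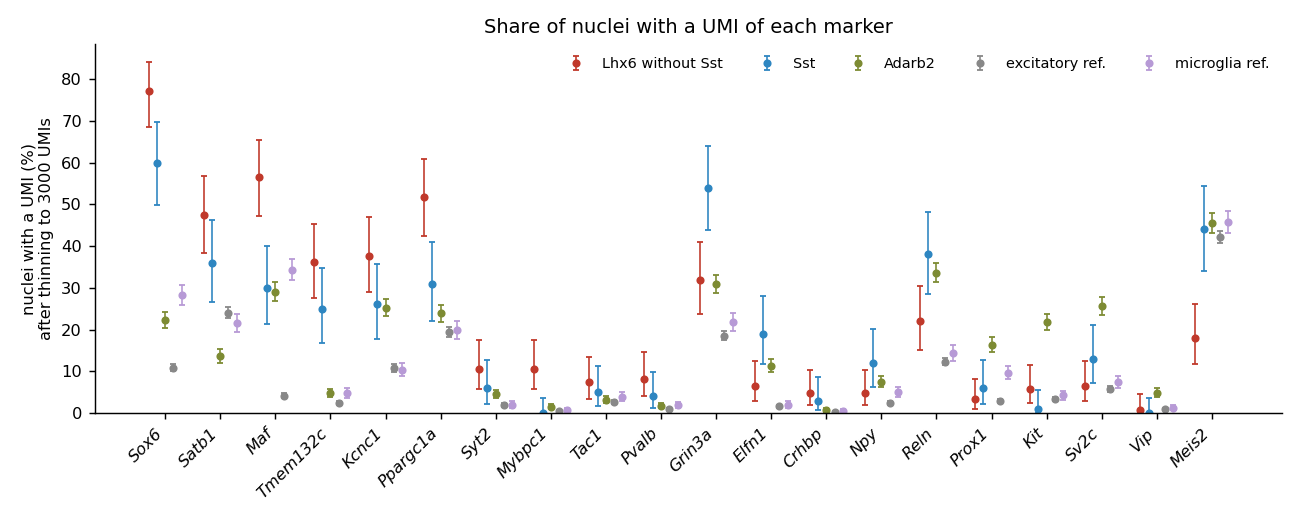
Share of nuclei with a UMI (y axis, %) of marker genes (x axis) after thinning nuclei of at least 3000 UMIs to 3000, in 5 classes of nuclei, with exact 95% binomial intervals. Sox6 reaches 77.0% in the Lhx6 nuclei, Pvalb 8.20%, and Meis2 is at 18.0% in them and at 42.2% to 45.8% in the other classes.

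A Pvalb UMI and at least 5 Grin3a UMIs did not occur in the same Lhx6 nucleus. Fewer Grin3a UMIs did occur beside Pvalb, in 12.5% of the 24 members with a Pvalb UMI. The set with at least 5 Grin3a UMIs is small, so rare nuclei with both are not excluded. None of the 23 members with at least 5 Grin3a UMIs had a Pvalb UMI, against 21 of the 68 members without Grin3a, and the median depth was 12089 UMIs in the first set and 10698 in the second. This split was chosen after its values were seen, and the members with much Grin3a came from all 6 libraries (6, 4, 4, 1, 2 and 6). The Grin3a-rich nuclei had 572 CPM of Reln, an extracellular signal of several interneuron kinds, against 56.9 CPM (log2 ratio 3.33, interval 2.84 to 3.84). Elfn1, the synaptic protein that Sst interneurons place on excitatory inputs, was at 113 against 17.7 CPM (log2 ratio 2.67), and Tox at 277 against 77.1 CPM.

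In the opposite direction, Erbb4 was at 3397 CPM in Grin3a-rich members and at 11891 CPM in those without Grin3a (log2 ratio -1.81, interval -1.91 to -1.71). Cemip was at 61.9 against 649 CPM, the noncoding transcript 6330411D24Rik at 47.3 against 599 CPM, Cntnap4, a neurexin-family protein of interneuron synapses, at 313 against 841 CPM, Syt2, from 3 UMIs, at 10.9 against 74.6 CPM and Ppargc1a at 106 against 282 CPM. Mybpc1 had no UMI in the 23 nuclei and 49 UMIs in the 68. Tmem132c, also of the Pvalb-type list, did not follow, at 237 against 188 CPM (log2 ratio 0.33, interval -0.11 to 0.76). Sox6 differed by -0.26 (interval -0.48 to -0.03). Of other Sst-type genes, Calb1 differed by 0.26 (interval -0.65 to 1.10), Tac1 by -0.14 (interval -1.75 to 1.24) and Crhbp by 1.36 (interval -0.22 to 2.90), all with intervals that span 0. Nos1 (log2 ratio 2.32) came from 3 of the 23 nuclei.

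The planned split by Pvalb set at least 2 UMIs against none, which left 6 nuclei, and a split at 1 UMI was added after the data were seen. In the latter, 24 members had 1 or 2 UMIs and 98 had none, with median depths of 12750 and 9961.5 UMIs. Grin3a was at 26.0 against 319 CPM (log2 ratio -3.62, interval -4.76 to -2.68) and Reln at 49.0 against 221 CPM. Mybpc1 was at 77.9 against 25.2 CPM (log2 ratio 1.63, interval 0.79 to 2.46), Syt2 at 107 against 39.8 CPM (1.42), 6330411D24Rik at 810.3 against 272 CPM (1.58) and Cemip at 781 against 337 CPM (1.22). Kcnc1 had a ratio of 0.82 (interval 0.47 to 1.17) and Sox6 0.64 (interval 0.46 to 0.81). Of other genes in the Pvalb-type list, Tmem132c had 0.64 (interval 0.25 to 1.01) and Ppargc1a 0.44 (interval 0.09 to 0.79). Tac1 of that list went the other way, at 11.5 against 27.2 CPM (log2 ratio -1.24), with an interval that spans 0 (-3.21 to 0.28). Kcnc2 differed by 0.27 (interval 0.19 to 0.35) and Nxph1 by 0.03 (interval -0.06 to 0.13), the latter by -0.09 after thinning. In the 6 nuclei with 2 Pvalb UMIs, against the 98 with none, Mybpc1 rested on 4 UMIs, and its log2 ratio of 0.54 had an interval that spans 0 (-1.44 to 2.07). Syt2 had 2.13 (interval 1.26 to 2.95), Cemip 1.23, Sox6 0.83, and Grin3a -2.80 (interval -4.43 to -1.56). Of other genes in the Pvalb-type list, Ppargc1a had 0.95 (interval 0.46 to 1.41) and Kcnc1 0.82 (interval 0.26 to 1.35). Tac1, with 0 against 28 UMIs, and Tmem132c, at -0.48, went the other way, the latter with an interval that spans 0 (-1.42 to 0.33). Kcnc2 had the opposite sign to that in the split at 1 UMI (-0.14, interval -0.30 to 0.01), and Nxph1 was at -0.25 (interval -0.42 to -0.08).

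**Figure D5:**
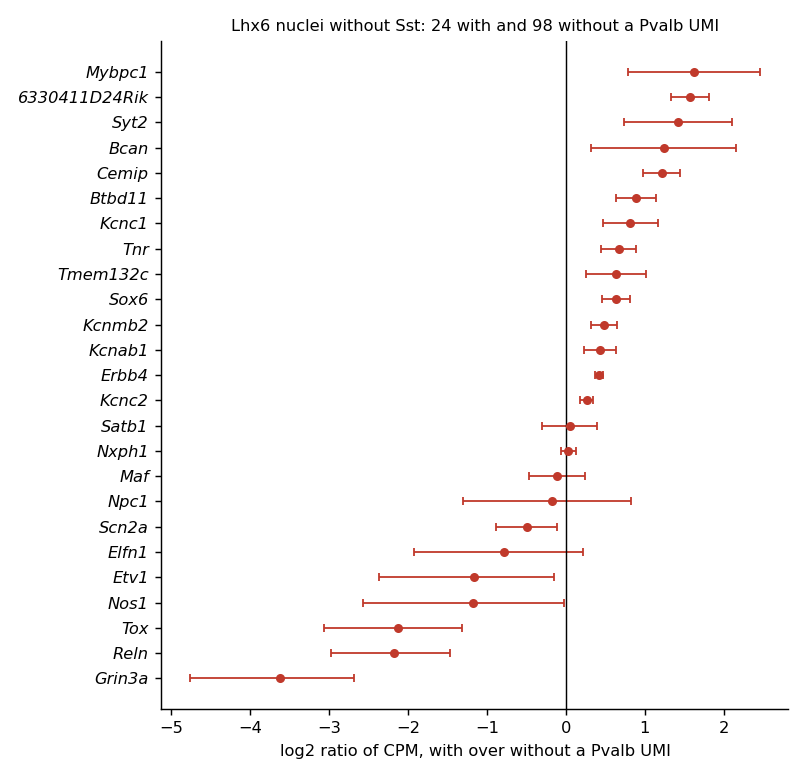
Log2 ratio of CPM (x axis) of genes (y axis) in the 24 Lhx6 nuclei with a Pvalb UMI to the 98 without, with exact 95% intervals from counting. Mybpc1 and 6330411D24Rik lie highest (1.63 and 1.58) and Grin3a lowest (-3.62).

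A graph clustering of the 122 nuclei gave 3 groups of 54, 48 and 20 nuclei, each present in all 6 libraries and with median depths of 9708.5, 10620 and 10414 UMIs. No cell type name was given, because no subtype marker was among the 10 leading genes of a group. The first was led by Vwc2l and Gm45323 and had 375 CPM of Grin3a and 2009 CPM of Kcnc2. Below its 10 leading genes, some subtype markers were counted mainly in it. Tshz2 was at 189 CPM in the first group against 20.6 CPM in the other members. Kit had 29 against 2 UMIs, Lhx8 13 against 0, Gbx1 7 against 1 and Nos1, from 8 nuclei, 46 against 8. Of other basal forebrain markers, Meis2 was at 99.6 against 59.3 CPM. Zic1 had 4 against 0 UMIs, Zic4 0 against 5, Kcng4 0 against 1, and Nkx2-1 and Ecel1 1 against 1 each. Of other Sst-type markers, Elfn1 was at 78.0 against 18.1 CPM and Reln at 201 against 160 CPM. Crhbp had 17 against 5 UMIs, Npy 15 against 6, Chodl 8 against 0, Hpse 6 against 0 and Cort 3 against 1. Calb1 had 36 against 36 UMIs, Pdyn 1 against 1, Cbln4 1 against 2 and Tac1 7 against 25. The second was led by the Wnt enhancer gene Rspo2 and by Bcas1 and had 6497 CPM of Kcnc2 and 401 CPM of Satb1. The third was led by 6330411D24Rik and Chrna7, the alpha7 nicotinic receptor, and had 1184 CPM of Cemip, 782 CPM of Runx2 and 1341 CPM of Sox6. These are descriptions, since the groups were formed from the same counts.

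Of adhesion and guidance genes, Erbb4, Cntnap4 and Slit2 were called higher in both comparisons. In libraries 1 to 6 Erbb4 was at 7476, 10044, 11231, 7157, 10412 and 10351 CPM, above the 4130 to 5785 CPM of the Adarb2 nuclei and the 1218 to 5499 CPM of the Sst nuclei without overlap. The log2 ratio was 2.03 (interval 1.96 to 2.09) to the Sst nuclei. To the Adarb2 nuclei it was 1.00 (interval 0.97 to 1.03), at the 2-fold limit. Nxph1 was called higher than in the Adarb2 nuclei (log2 ratio 1.81, interval 1.76 to 1.85) and had 0.73 against the Sst nuclei. Its sign was reversed against the 39 nuclei with both Lhx6 and Sst (3467 against 4034 CPM, log2 ratio -0.22, interval -0.30 to -0.14). Cntnap4 was higher in both comparisons (1.41 and 1.49), as was the guidance cue gene Slit2 (1.14 and 2.08). None of the 3 was called against the 39 nuclei with both Lhx6 and Sst, where the log2 ratio was 0.73 for Erbb4 (9532 against 5754 CPM, interval 0.67 to 0.79), 0.39 for Cntnap4 (interval 0.18 to 0.60) and 0.88 for Slit2 (interval 0.61 to 1.16). Il1rapl2, a synaptic adhesion gene, was near 4-fold higher over all nuclei (1.98 and 1.97) but had 456 CPM in library 3 against 1339 to 1837 CPM in the other 5, so it was not called. Of the 34 genes in the list, 32 entered against the Adarb2 nuclei with 6 called higher and 1 lower (median 0.25), and 29 against the Sst nuclei with 3 higher and none lower (median 0.07).

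Some GABA and glutamate receptor genes were called. Among all genes of at least 50 CPM in either class, 3.18% were higher and 3.49% lower than in the Adarb2 nuclei. Against the Sst nuclei these shares were 1.62% and 1.57%. Calls of 1 or 2 genes of a list against the Adarb2 nuclei are therefore given for the genes and not read as a result about the list. Against the Sst nuclei, 3 of 9 GABA-A receptor genes compared were higher and none lower. Gabrb2 was at 583 against 231 CPM and Gabrg3 at 2434 against 990.3 CPM, and neither was called against the nuclei with both Lhx6 and Sst (log2 ratios 0.95 and 0.20). Against the Adarb2 nuclei, 1 of 12 was called, Gabrd, the subunit of extrasynaptic receptors (47.2 against 17.3 CPM, log2 ratio 1.44). Among 24 glutamate receptor genes, Gria1, an AMPA receptor subunit, was called higher than in the Adarb2 nuclei (2871 against 1125 CPM) and Gria4, the fast AMPA subunit of these cells, had a log2 ratio of 0.96. Grik4 and Grm8 were called lower than in the Adarb2 nuclei, and Grin3a, Grik3 and Grm7 lower than in the Sst nuclei. Of 18 genes for GABA packaging, uptake and release, Syt2 alone was called higher than in the Adarb2 nuclei, and Unc13c alone, a vesicle priming factor, lower than in the Sst nuclei (log2 ratio -2.14).

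Core perineuronal net genes were near the counting limit. Acan, the aggrecan of mature nets around Pvalb cells, had 9 UMIs in all members and the link protein gene Hapln1 14. Of 13 genes, 7 entered against the Adarb2 nuclei, with none higher and Vcan lower (30 against 967 UMIs), and a median log2 ratio of -0.22. This median was -0.11 without library 1, -0.35 without library 2 and -0.45 without library 3. Vcan, Hapln1 (14 against 428 UMIs) and Bcan (45 against 594 UMIs) reached the minimum of UMIs through the Adarb2 nuclei. The call of Vcan, and in part the median, therefore describe genes that were counted mainly there. The summed level of the list was 879 CPM in the Lhx6 nuclei and 861 CPM in the Adarb2 nuclei. Tnr, tenascin-R, made up most of the list's counts, with 558 CPM against 374 and 446 CPM in the Adarb2 and Sst nuclei.

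The genes highest above the Sst nuclei were Tll1 (126 against 9.39 CPM), Pde5a, which breaks down cyclic GMP (95.1 against 10.3 CPM), Cemip (449 against 49.7 CPM) and the laminin gene Lama3 (80.6 against 13.1 CPM). Tll1 was higher in 6 of 6 libraries, with 482 CPM in library 5 and 22.8 to 103 CPM in the others, and without library 5 it was at 64.6 against 10.3 CPM, a 6.27-fold difference (log2 ratio 2.65, interval 1.69 to 3.77). Pde5a was at 70.9 to 151 CPM in the Lhx6 nuclei and at 0 to 14.6 CPM in the Sst nuclei, with no overlap. It had only 11 UMIs in all Sst nuclei together. The noncoding genes 6330411D24Rik, Gm31218, Gm13963 and 4933413L06Rik, the antisense transcript Sox5os4, Gpr176, Oprd1 and Erbb4 completed the 12 named. Among the 12, some genes reached the minimum of UMIs mainly through the Lhx6 nuclei. They include Tll1 (173 against 10 UMIs), Pde5a (131 against 11), Lama3 (111 against 14), Gm13963 (90 against 17) and Sox5os4 (94 against 19). With so few Sst UMIs spread over the libraries, a higher level in 6 of 6 was easily met and adds little for these genes. Against the 39 nuclei with both Lhx6 and Sst, 1 of the 12, the orphan receptor gene Gpr176, was called higher (log2 ratio 1.12, interval 0.70 to 1.58). There Pde5a differed by 0.33 (interval -0.23 to 0.93) and 6330411D24Rik by -0.16 (interval -0.40 to 0.08), and Cemip, at 1.53, was higher in 5 of 6 libraries. The gene furthest below the Sst nuclei was Mobp, a myelin gene of oligodendrocytes (21.0 against 208 CPM), followed by B130024G19Rik, Meis2, Unc13c and Tox, and the 12 also held Arpp21, Nrp1, Ildr2, Maml2, Scd2 and the mitochondrial mt-Co2 and mt-Nd4. Of these 12, Tox was called lower against the 39 nuclei too (log2 ratio -1.71, interval -2.01 to -1.41), whereas Meis2 differed from them by 0.07 (interval -0.51 to 0.69).

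RNA of other cell types moved with these low values. The 5 oligodendrocyte markers summed to 316 CPM in the Lhx6 nuclei (34.2 to 621 CPM by library), 1428 CPM in the Sst nuclei (51.6 to 2578) and 598 CPM in the Adarb2 nuclei (125 to 1200), and none of the 5 was at 0. The 5 astrocyte markers summed to 347, 928 and 646 CPM in the same order. All comparable ratios of the astrocyte, oligodendrocyte, progenitor, microglia and vascular markers to the Adarb2 nuclei were below 0. At least 3 Mbp UMIs, the main myelin transcript, occurred in 34 of 122 members. Nuclei with 3 or more Mbp UMIs, or 2 or more of the other oligodendrocyte markers, were taken out of all 3 classes, an alternative added after the data were seen. This left 59 Lhx6 nuclei, 33 Sst nuclei and 854 Adarb2 nuclei with 82.3, 140.1 and 124 CPM of the 5 markers. Then 99 genes were higher and 362 lower than in the Adarb2 nuclei, and 13 were higher and 7 lower than in the Sst nuclei, of which library 1 held 1 and libraries 2 and 5 held 2 each. Taken out of the Lhx6 nuclei alone, which widens the gap in this RNA, the counts were 101 and 627 against the Adarb2 nuclei and 35 and 56 against the Sst nuclei.

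Most genes of cholesterol synthesis lay below the Adarb2 nuclei. Npc1 had 48 UMIs in all members and was at 50.5, 39.0, 45.6, 15.9, 34.8 and 14.7 CPM in libraries 1 to 6, against 26.2 to 37.8 CPM in the Adarb2 nuclei (log2 ratio 0.12, interval -0.34 to 0.55). A transcript count does not check the nih allele, and no library was assigned a genotype from it. Of 23 cholesterol synthesis genes, 22 entered against the Adarb2 nuclei, with 21 ratios below 0, 3 called lower (Fdft1, Msmo1, Nsdhl, all under 50 CPM in both classes) and a median log2 ratio of -0.54, where 7334 of all 11497 genes compared lay below 0. Over all 11497 genes, 4.84% were called lower. Most genes of the cholesterol list entered through the Adarb2 nuclei, as Fdft1 did with 17 against 523 UMIs. Against the Sst nuclei 3 of the genes entered and none was called (median -0.74). The summed level was 254 to 383 CPM per library in the Lhx6 nuclei. It was 449 to 549.9 CPM in the Adarb2 nuclei and 445 to 611 CPM in the Sst nuclei, without overlap with the Lhx6 nuclei. Against the Adarb2 nuclei, the list medians of astrocyte, oligodendrocyte, progenitor, microglia and vascular markers, -0.64 to -1.06, lay below the cholesterol median of -0.54. With nuclei holding oligodendrocyte RNA taken out of all 3 classes, the cholesterol median was -0.68. A link between RNA of other cell types and the cholesterol values was not tested. Of 13 cholesterol transport genes, Soat1, which esterifies cholesterol, was called lower than in the Adarb2 nuclei, also at under 50 CPM, and none higher, with a median of -0.01.

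Of 7 Lamp5 neurogliaform markers, 6 were called lower than in the Adarb2 nuclei, with a median log2 ratio of -1.74, and they too were counted mainly in the Adarb2 nuclei. Of 7 Sst-type markers compared with the Adarb2 nuclei, 2 were higher (Calb1, Tac1) and 1 lower (Reln), with a median of 0.47. Of 6 pallidal and basal forebrain markers compared, 3 were lower than in the Adarb2 nuclei (Zic1, Tshz2, Meis2). Of 5 immature neuron markers compared, 2 were lower (Sox4 with 19 against 490 UMIs, Igfbpl1 with 8 against 332). Of 7 neuropeptide genes compared, 1 was higher (Tac1) and 3 were lower (Vip with 4 against 360 UMIs, Penk with 9 against 254, Pnoc with 5 against 196). Like Zic1, with 4 against 209 UMIs, these genes reached the minimum of 100 UMIs through the Adarb2 nuclei, so their calls describe genes that were counted mainly there.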

How the data were processed

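Gene counts of single nuclei came from forebrain of 3 WT and 3 Npc1-/- mice. The values are UMI counts deposited by the authors as 1 matrix of 75878 barcodes, whose header names Cell Ranger 6.0.0, while the submitters' processing notes name Cell Ranger 2.1.1 and mm10. The study's methods describe alignment with STARsolo, removal of empty droplets and doublet calling, but no source used here says whether the deposited barcodes passed these steps or whether counting used strand. Nuclei with 10% or more mitochondrial UMIs were left out (11 barcodes).

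Counts were summed per class and library and expressed as CPM in Python 3.11.15 with numpy 2.4.6 and scipy 1.17.1. Intervals are exact Poisson, Clopper-Pearson or binomial-ratio intervals at 95%. A call needed at least 100 UMIs over both classes, 2-fold, and 6 of 6 libraries. The method was tested on simulated data with 200 changed genes, where it also called unchanged genes lower, none of them at 50 CPM or more, so lower calls of rarer genes are less certain and counts of calls at 50 CPM or more are given too. The simulation drew Poisson counts from the Adarb2 profile, without further spread between nuclei or libraries. It therefore does not vouch for calls at 50 CPM or more, and the comparison with the Sst nuclei was not simulated. Doublets were scored by library, not removed, and 4 members lay in the top 6% of scores. Clusters used scanpy 1.11.5 (2000 variable genes, 20 components, 15 neighbours, resolution 0.5). Genes named are the first 15 by fold over other nuclei, the 12 largest calls of each direction at 50 CPM or more, and genes of the 26 lists. Members and lists were chosen with earlier results of these data known. A planned Sst class that also required Lhx6 and 3 Sst UMIs held 4 nuclei and was replaced after the data were seen. Gene positions are from GENCODE on GRCm38. A few genes are not reported here by name or in the plots, but they count in the list totals and medians.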

Additional observations from a re-analysis of the deposited data

How the results depend on the processing

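Of the channel, perineuronal net and cholesterol list medians, the perineuronal net median against the Sst nuclei (-0.13), which rests on 3 genes and ranged from -0.33 to 0.26, was the one that changed sign under the alternatives run. Single genes were not recomputed under every alternative. Counts of calls under the alternatives are given without the number of genes entered, which can fall where nuclei are fewer. The cause of the shifts below was not tested. With at least 3 Lhx6 UMIs (25 nuclei) the share of nuclei was 0.0330%, 30 genes were higher and 88 lower than in the Sst nuclei, 82 were higher and 399 lower than in the Adarb2 nuclei, the channel medians were 0.66 and 0.32, and the cholesterol median against the Sst nuclei, -0.74 from 3 genes with none called, was -1.65. With at least 5 Gad1 and Gad2 UMIs the share was 0.0909%, 39 genes were lower than in the Sst nuclei and the perineuronal net median against the Adarb2 nuclei was -0.55. Among nuclei of at least 3000 UMIs the share was 0.218%. The share with Pvalb was 8.20% after thinning and 4.92% for at least 2 UMIs. With 30 UMIs required, 95 genes were higher and 129 lower than in the Sst nuclei. Scaling by the median gave a cholesterol median of -0.40 against the Adarb2 nuclei, and a mean of per-nucleus CPM a channel median of 0.39. Among genes of at least 50 CPM, 135 were lower than in the Adarb2 nuclei. 

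In alternatives added after seeing the data, the Sst class with Lhx6 gave 20 genes higher, 15 lower and a channel median of 0.23. Without members holding oligodendrocyte RNA the share was 0.0778%, 35 genes were higher and 56 lower than in the Sst nuclei, 101 were higher and 627 lower than in the Adarb2 nuclei, the cholesterol median against the Sst nuclei was -1.36 and the perineuronal net median against the Adarb2 nuclei -0.62. With such nuclei taken out of all 3 classes, 13 genes were higher and 7 lower than in the Sst nuclei, 99 were higher and 362 lower than in the Adarb2 nuclei, and the perineuronal net and cholesterol medians against the Adarb2 nuclei were -0.72 and -0.68. Leaving out each library in turn moved the channel median against the Sst nuclei from 0.46 to 0.78 and the perineuronal net median against the Adarb2 nuclei from -0.45 to -0.11. It gave 57 to 79 genes higher and 54 to 78 lower than in the Sst nuclei, and 157 to 183 higher and 557 to 649 lower than in the Adarb2 nuclei. No paired analysis was possible because no library number is tied to a mouse, so WT and Npc1-/- mice were not compared. The calls between classes compare the direction within each of the 6 libraries. Their fold sizes and intervals come from UMIs pooled over libraries, to which the classes contribute in different proportions. No cholesterol median against the Sst nuclei could be had with at least 5 Gad1 and Gad2 UMIs, without library 2, against the Sst class with Lhx6, or with oligodendrocyte RNA taken out of all 3 classes. Genes with under 100 UMIs over both classes were left uncalled by rule.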
